A study of Rattus norvegicus with 24 samples.

Results

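The comparison described here sets 3 PC12 libraries labelled as stably expressing human α1ACT against 3 labelled as carrying the empty vector pcDNA3, all labelled 3 d, 6 of the 24 libraries of the series. They were chosen by sample title alone, Q11_3D against P_3D, with replicate numbers 1 to 3 on each side. PC12 is a rat pheochromocytoma line of neural crest origin, and all groups were grown in F-12K medium with horse and fetal bovine serum at passages 18 to 20. α1ACT is the polypeptide translated from an internal start in the mRNA of CACNA1A, the gene of the P/Q-type calcium channel. The labels name no treatment and no event from which the time is counted, and each line is a stable line for which the number of clones is not given. The protocol speaks of biological replicates without naming separate cultures. The p-values therefore measure only the spread within groups over the 24 libraries of the series, which may be technical.

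The deposited tables carry a second identity. The tables of the libraries labelled vector 3 d are named Q11 at 6 h, and those of the libraries labelled α1ACT 3 d are named Q11 at 24 h. Read by labels, each difference below is α1ACT against vector at 3 d. Read by file names, the same difference is 24 h against 6 h within the α1ACT line, and the vector line does not enter it. Groups were taken from the labels throughout, and "higher" or "lower" always means in the libraries labelled α1ACT relative to those labelled vector.

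Several of the genes that differed most belong to the response of cells to serum and growth factors. Such stimuli act on PC12 cells through the ERK kinase cascade, which phosphorylates ETS factors, and through changes in actin, which release cofactors of the serum response factor SRF from monomeric actin. SRF binds the CArG box and switches on immediate early genes, among them members of the AP-1 family and the dual-specificity phosphatases that feed back on ERK, and genes of the actin cytoskeleton. Cyclic AMP acts on many of the same early genes through CREB, which binds the CRE. Interferon signalling uses a different route, in which a complex holding STAT2 and IRF9 binds the ISRE.

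Promoter stretches of the genes that carry these results are shown first, since their motifs were counted beside the expression data. All are from RefSeq on the rat build GRCr8, 5′ to 3′ on the strand of the gene, within 250 bases before to 50 after the gene's start, with the matched letters in capitals. Srf at chr9:21923976-21924035 (+), Dusp5 at chr1:262543674-262543723 (+), Klf6 at chr17:69458649-69458698 (-), Zfp36 at chr1:92799109-92799158 (-) and Actg1 at chr10:106121012-106121061 (-) hold a CArG box, and all 5 genes were lower.
Srf: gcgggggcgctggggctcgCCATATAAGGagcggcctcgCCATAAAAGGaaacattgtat
Dusp5: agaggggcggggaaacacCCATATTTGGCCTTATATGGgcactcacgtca
Klf6: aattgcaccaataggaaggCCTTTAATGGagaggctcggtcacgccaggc
Zfp36: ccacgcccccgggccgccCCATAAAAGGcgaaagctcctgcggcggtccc
Actg1: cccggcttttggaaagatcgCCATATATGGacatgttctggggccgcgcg

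A full CRE, spelled TGACGTCA, was found in 6 of the early genes that were lower. The stretches are Dusp1 at chr10:17184708-17184757 (+), Maff at chr7:112792717-112792766 (+), Ier2 at chr19:40399288-40399337 (+), Jund at chr16:18769962-18770011 (-), Btg2 at chr13:48087861-48087910 (-) and Plk2 at chr2:43702451-43702500 (+).
Dusp1: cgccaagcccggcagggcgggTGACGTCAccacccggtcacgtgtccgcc
Maff: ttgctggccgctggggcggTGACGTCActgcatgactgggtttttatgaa
Ier2: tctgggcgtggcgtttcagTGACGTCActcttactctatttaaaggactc
Jund: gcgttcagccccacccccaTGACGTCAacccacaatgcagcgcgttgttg
Btg2: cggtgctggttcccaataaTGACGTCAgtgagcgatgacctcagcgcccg
Plk2: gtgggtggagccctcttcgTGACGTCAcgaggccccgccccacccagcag

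Among the interferon genes that were higher, 5 hold an ISRE, searched on both strands as GAAA, any 2 bases and GAAA. They are Ifi44 at chr2:243303796-243303885 (-), Oas1a at chr12:41330406-41330455 (+), Parp14 at chr11:78408039-78408088 (+), Psmb8 at chr20:4657007-4657056 (-) and Ifi27 at chr6:128355132-128355251 (+). Ifi44 and Psmb8 carry the motif on the opposite strand, so the letters printed show its reverse complement.
Ifi44: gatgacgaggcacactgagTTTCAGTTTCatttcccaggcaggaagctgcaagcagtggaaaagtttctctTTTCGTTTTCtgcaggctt
Oas1a: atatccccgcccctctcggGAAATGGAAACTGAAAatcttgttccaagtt
Parp14: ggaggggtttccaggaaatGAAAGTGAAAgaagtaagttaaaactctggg
Psmb8: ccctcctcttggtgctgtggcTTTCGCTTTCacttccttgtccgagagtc
Ifi27: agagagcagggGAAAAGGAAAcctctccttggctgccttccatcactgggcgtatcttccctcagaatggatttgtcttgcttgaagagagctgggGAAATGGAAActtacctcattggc

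Depth on genes was 9718085 to 12213042 counts in the libraries labelled vector and 10794357 to 12727306 in those labelled α1ACT. A count of 3 in 1 library stood at 0.236 to 0.309 CPM (a gene's count per 1000000 counts in its library). Reads outside annotated genes made up 48.8% ± 0.569 (SD, n = 3) and 49.9% ± 0.286, with no overlap between the groups. The whole here is reads on genes, outside them or ambiguous between genes. Alignments that were not unique are left out of it, and stood at 83.2 to 91.1 per 100 of those reads. The part of either kind of read in the results was not tested. Markers of chromaffin cells, the normal counterpart of PC12, were present, with a summed level over 13 genes of 22820 to 23610 CPM in the libraries labelled vector and 22270 to 24330 in those labelled α1ACT. Pnmt, the enzyme that makes adrenaline, was at 0 in all 6 libraries. Markers of adrenal cortex, fibroblasts, endothelium, immune cells and glia summed to under 10 CPM per list in each library.

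Of 9994 genes tested, 3934 (39.4%) passed an adjusted p of 0.05 by edgeR's quasi-likelihood test with Benjamini-Hochberg adjustment, 1991 higher (19.9%) and 1943 lower (19.4%). Most of these differences were small, with a median absolute log2 fold change of 0.32 among genes called, or 1.25-fold. At least 2-fold differences were found for 253 genes (2.53%), 131 higher (1.31%) and 122 lower (1.22%). Because so many genes passed, each count of a list below is read against 19.9% and 19.4%. The number called was 2462 without the replicates numbered 1 and 2449 without those numbered 3.

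**Figure D1:**
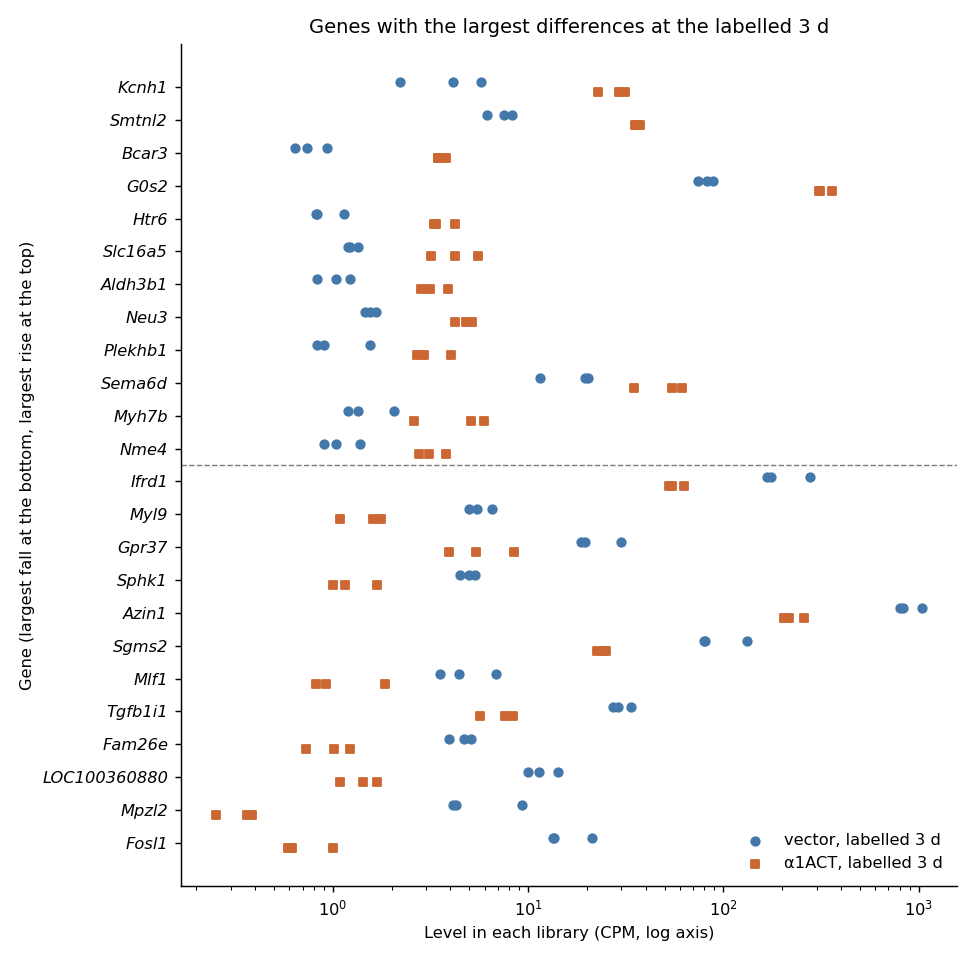
Levels in each of the 6 libraries (CPM, log axis) of the 12 genes with the largest rises and the 12 with the largest falls, circles for libraries labelled vector and squares for those labelled α1ACT. No gene shown overlaps between the groups, which the choice of genes required.

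Fosl1 encodes FRA-1, an AP-1 subunit induced by sustained ERK signalling. Its level was 13.6, 21.2 and 13.4 CPM in the libraries labelled vector (numbers 1 to 3) and 0.615, 0.589 and 1.0 CPM in those labelled α1ACT. The lowest library labelled vector was thus far above the highest labelled α1ACT, and the log2 fold change was -4.45 ± 0.31 (SE; edgeR, adjusted p = 4.06e-11). Of 12 AP-1 genes tested, 8 were lower and 1 was higher (2 without the library labelled α1ACT number 3), and the median log2 fold change was -0.62 against 0.01 over all genes tested. Jun, the core partner of the FOS proteins, was at 99.5, 128 and 95.1 CPM against 55.5, 63.7 and 56.1 CPM, a log2 fold change of -0.88 ± 0.12. Jund fell by 0.84 ± 0.11, Maff by 1.48 ± 0.19, Atf3 by 1.01 and Fosl2 by 0.76 on the log2 scale. The AP-1 gene most used as an early marker, Fos, was not called (0.34 ± 0.23, adjusted p = 0.267).

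Other immediate early genes were lower too. Of 23 tested, 13 were lower and 3 were higher, with a median of -0.72. Srf stood at 163, 199 and 151 CPM in the libraries labelled vector and at 53, 58.4 and 56.4 CPM in those labelled α1ACT, with no overlap. This is a 3.06-fold lower level (log2 fold change -1.61 ± 0.09, adjusted p = 1.29e-12). Klf4, a zinc finger factor, fell from 20.7 CPM ± 4.37 (SD, n = 3) to 5.97 ± 0.491, and Klf6 from 150 CPM ± 24.6 to 66.5 ± 1.78. Arc, a synaptic activity gene, fell by 1.15 on the log2 scale, and Nr4a1, an orphan nuclear receptor induced by cyclic AMP, by 1.79 ± 0.33. The 3 members that were higher were Myc (0.61), Gadd45b (0.61 ± 0.18) and Ier5l (0.50), of which Gadd45b was not called without the library labelled vector number 2 (adjusted p = 0.0756), and 1 member of the list was higher there. Egr1, a direct SRF and ETS target, was not called (-0.87 ± 0.59, adjusted p = 0.256).

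Genes of ERK feedback, negative regulators and the ETS factor Etv5 among them, were lower where they differed. Of 15 tested, 7 were lower and none was higher, with a median of -0.37. Dusp6, the phosphatase of cytoplasmic ERK, was at 7.06, 13.2 and 8.09 CPM against 2.85, 2.53 and 2.64 CPM, a log2 fold change of -1.81 ± 0.23. Etv5, an ETS factor downstream of ERK, was 2.22-fold lower (54.7 CPM ± 3.94 against 24.6 ± 3.59). Dusp5, the nuclear ERK phosphatase, fell by 0.62 ± 0.12, Spry4 by 0.60 ± 0.14 and Spred1 by 0.35 on the log2 scale. Of 14 growth factor receptors tested, 4 were higher (28.6%) and 1 was lower (7.14%), with 2 higher without the replicates numbered 1. Ngfr, the p75 neurotrophin receptor, was 1.43-fold higher (703 CPM ± 75.2 against 1007 ± 72.3), and Gfra1, a co-receptor of GDNF, 1.53-fold higher. The lower receptor, Ret, was not called without any of 4 single libraries (α1ACT numbers 1 and 3, vector numbers 2 and 3). Among 8 growth factors tested, Hbegf, an EGF receptor ligand, was lower (7.46 CPM ± 0.445 against 4.79 ± 0.580) and Vegfa, the vascular growth factor, was higher (470 CPM ± 25.8 against 702 ± 22.9).

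Motifs in the promoters of these genes were counted as a description. A promoter was matched for 22 of the 28 AP-1, immediate early and ERK feedback genes that were lower. The CRE was in 6 of them (27.3%), against 3.33% of 8079 promoters of genes tested and 1.83% of all 33469 promoters of the same length. A CArG box was in 4 (18.2%), against 1.18% and 1.64%. Over all genes called lower, the shares were 4.58% for the CRE and 1.05% for the CArG box. The lists themselves hold known targets of SRF and CREB, and members not called lower were not counted. The AP-1 site itself, spelled TGANTCA, was in none of the 22, against 4.88% of promoters of genes tested. A match is no evidence of binding, and a motif outside these windows would not be seen.

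Genes of the actin cytoskeleton and of focal adhesions formed the group with the most members lower. Of 37 tested, 24 were lower (64.9%) and 1 was higher, with a median log2 fold change of -0.34, and the number lower was 21 to 26 in all alternatives run. Cytoplasmic γ-actin, Actg1, was at 463, 617 and 502 CPM in the libraries labelled vector and at 176, 186 and 187 CPM in those labelled α1ACT. The groups were far apart, and the log2 fold change was -1.53 ± 0.09. Cytoplasmic β-actin, Actb, fell less, from 2800 CPM ± 106 to 2017 ± 24.2 (1.39-fold). Actb and Actg1 are near-identical in their coding sequence, so some of their reads may be missing as not unique or assigned to the wrong gene.

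Several of the larger falls were in proteins that tie actin to integrins. Vinculin, Vcl, was at 390, 550 and 417 CPM against 160, 175 and 162 CPM, 2.73-fold lower. The LIM protein genes Tgfb1i1 (Hic-5), Csrp1 and Pdlim7 fell by 2.05 ± 0.15, 1.02 ± 0.08 and 1.06 ± 0.08 on the log2 scale, and filamin A, Flna, by 0.71 ± 0.06. Myosin light chain Myl9 fell from 5.68 CPM ± 0.774 to 1.49 ± 0.351, and the nonmuscle myosin heavy chains Myh9 and Myh10 by 0.51 and 0.52 on the log2 scale. These genes span adhesion plaques, stress fibre proteins and contractile motors alike. Calponin 3, Cnn3, was the member that was higher (28.4 CPM ± 1.96 against 43.1 ± 1.62). Talin, Tln1, profilin, Pfn1, and the thymosins Tmsb4x and Tmsb10, which bind monomeric actin, were not called.

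**Figure D2:**
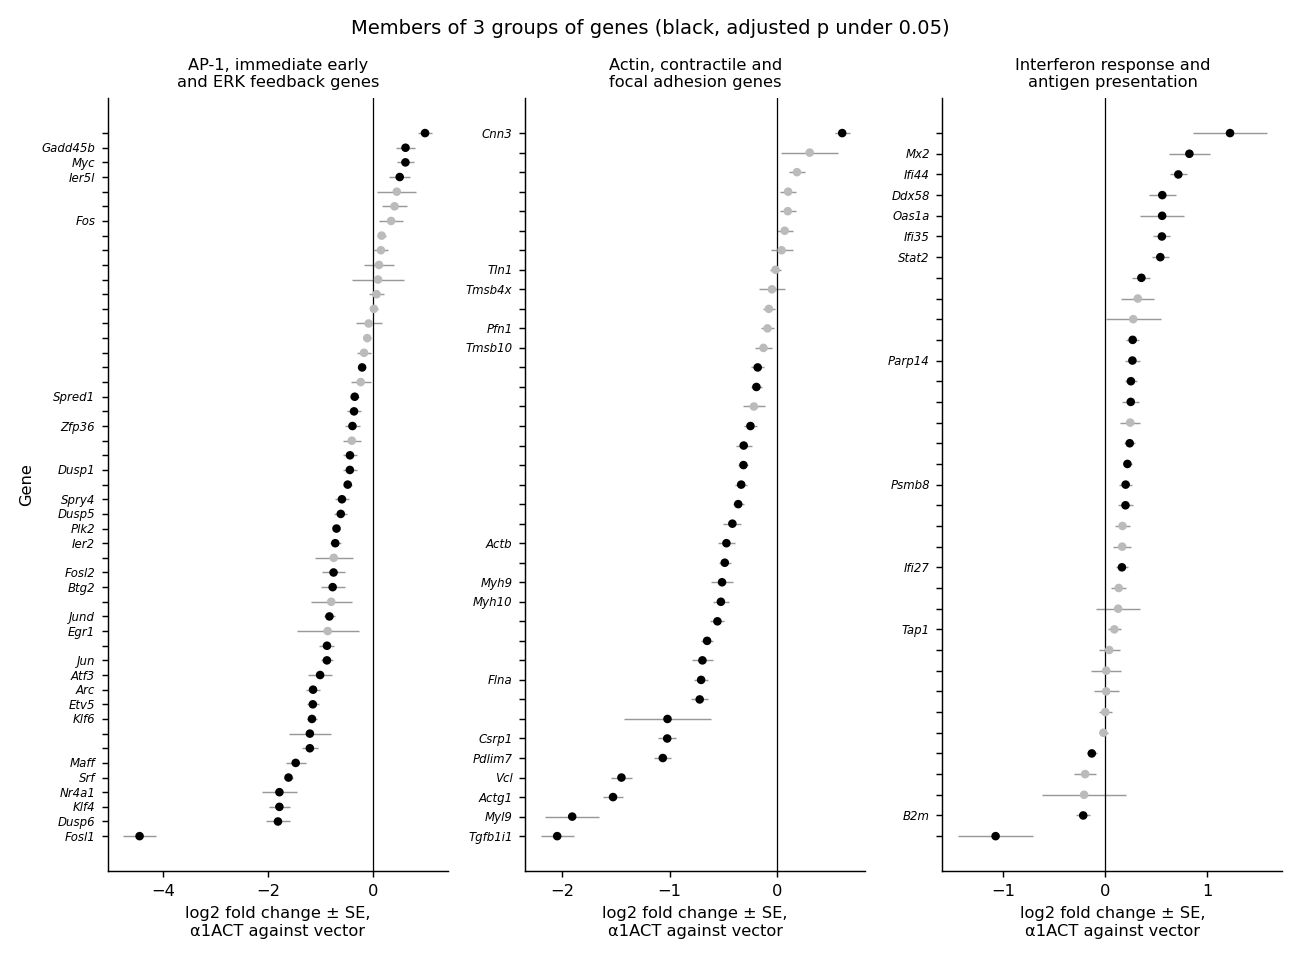
Log2 fold change ± SE at the labelled 3 d of every tested member of the AP-1, immediate early and ERK feedback lists (left), of the actin and focal adhesion list (middle) and of the interferon list (right), black where adjusted p is under 0.05, with names for those described in the text. Fosl1 lies at -4.45 and Tgfb1i1 at -2.05, while most called interferon genes lie between 0.16 and 0.83.

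A marker list of another cell type moved with the actin genes. Of 5 epithelial markers tested, 4 were lower, and their summed level was 1309 to 1778 CPM in the libraries labelled vector and 961 to 1203 CPM in those labelled α1ACT. Keratin 8, Krt8, was the most counted member at 925, 1244 and 937 CPM against 656, 829 and 653 CPM. Krt18, its partner, overlapped between the groups and was not called without the libraries labelled α1ACT number 1 or 3 or vector number 2 (adjusted p = 0.145, 0.108 and 0.359). In bulk RNA, fewer cells of a type and less RNA per cell cannot be told apart, and the part of these genes in the actin result was not tested. Of 20 promoters matched for the lower actin genes, 6 (30.0%) held the TEAD motif GGAATG, against 10.9% of genes tested and 14.2% of all promoters, and 1 held a CArG box. Over all genes called lower, 11.6% held the TEAD motif, and actin genes not called lower were not counted.

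Targets of TEAD and YAP did not move as 1 group. Of 10 tested, 4 were higher and 2 lower, and the number higher was 2 without any of 4 single libraries (α1ACT numbers 1 and 2, vector numbers 2 and 3). The number lower was 1 without α1ACT number 1 or 2 or vector number 1 or 3. Among matrix genes, 5 of 21 were higher (2 without the replicates numbered 3) and 6 lower. Plat and Plaur, of the plasmin system, fell by 0.77 ± 0.13 and 2.03 ± 0.40 on the log2 scale, and laminin γ1, Lamc1, by 0.58 ± 0.07. Laminin β3, Lamb3, was higher, at 16.8, 23.8 and 17.7 CPM against 32.3, 57.2 and 34.6 CPM. Thrombospondin 1, Thbs1, had 31 counts in the libraries labelled vector and 1 in those labelled α1ACT, a ratio of 34.0 scaled for depth with an exact 95% counting interval of 5.66 to 1385. Epha2, a receptor of ephrins, had 37 against 7 counts (ratio 5.79, 2.55 to 15.4). These intervals cover counting error only.

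Among genes of the NF-kB response, 9 of 20 tested were lower and 1 was higher, with a median of -0.26, and 2 were higher without the library labelled α1ACT number 3. Tnfrsf12a, the receptor of TWEAK and also a gene induced early by growth factors, was at 140, 177 and 133 CPM against 46.7, 54.7 and 42.3 CPM, 3.13-fold lower with no overlap. Icam1, an adhesion molecule, fell from 3.74 CPM ± 0.792 to 1.24 ± 0.290. Rela, the p65 subunit, and the inhibitor Nfkbia each fell by 0.28 on the log2 scale. The chemokines were near the floor, with 45 against 9 counts for Cxcl10 (ratio 5.48, 95% counting interval 2.65 to 12.8) and 22 against 4 for Ccl2 (6.03, 2.05 to 24.1). Bcl3, with 9 against 36 counts (ratio 3.65, 1.73 to 8.62), was the member that was higher, and it was not called without the library labelled vector number 2 (adjusted p = 0.0648).

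Interferon response and antigen presentation genes went the other way. Of 35 tested, 17 were higher (48.6%) and 3 were lower, with a median of 0.20, and most differences were under 1.5-fold. Ifi44, an interferon-induced protein, was at 40.5, 41.5 and 38.0 CPM against 66.9, 65.8 and 64.7 CPM, a tight pair of groups with a log2 fold change of 0.72 ± 0.08. Stat2, the STAT of the ISRE-binding complex, was at 20.9, 22.3 and 25.2 CPM against 34.4, 30.3 and 34.6 CPM (0.54 ± 0.09). Ifi35 was 1.47-fold higher, and the RNA sensor Ddx58 (RIG-I) and the GTPase Mx2 rose by 0.56 and 0.83 on the log2 scale. B2m, the light chain of MHC class I, was lower by 0.22 on the log2 scale, and Tap1, the peptide transporter, was not called. An ISRE was in 5 of the 12 promoters matched for the 17 higher genes (41.7%), against 2.69% of genes tested and 3.92% of all promoters. Over all genes called higher it was in 2.85%, and interferon genes not called higher were not counted. Without the replicates numbered 1, 11 members were higher, and 9 without those numbered 3. None was lower without the library labelled α1ACT number 1, and 1 without vector number 3.

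**Figure D3:**
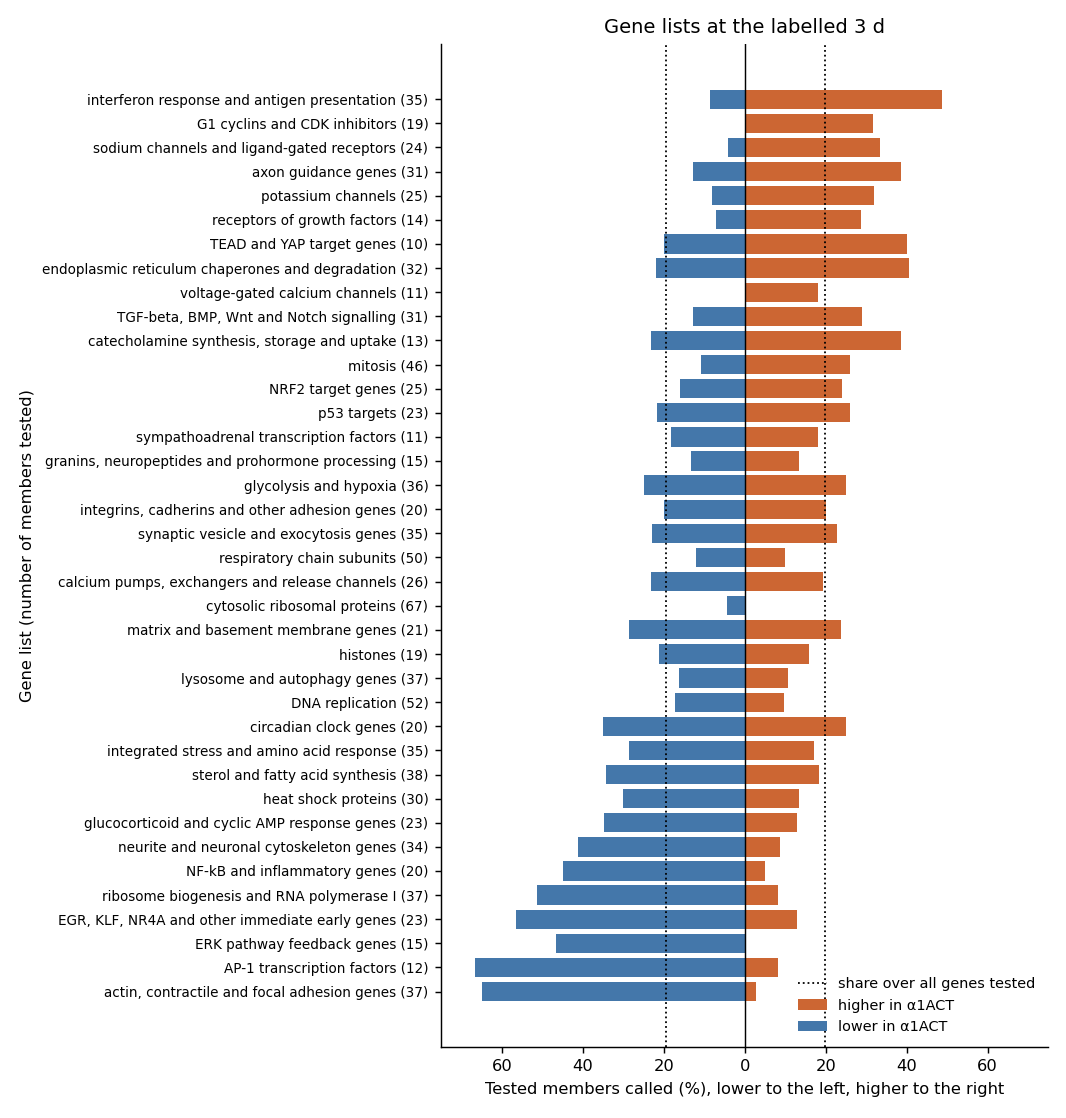
Share of tested members called higher (right) or lower (left) at the labelled 3 d for each list with at least 10 tested members, with dotted lines at the shares over all genes tested, 19.9% and 19.4%. Actin genes (64.9%) and AP-1 genes (66.7%) stand at the lower end and interferon genes (48.6% higher) at the upper end.

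Among the 12 largest rises were a channel, a receptor and a transporter of the plasma membrane, Kcnh1, Htr6 and Slc16a5. Kcnh1, the EAG1 potassium channel, was at 5.75, 2.21 and 4.15 CPM in the libraries labelled vector and 31.5, 22.8 and 29.1 CPM in those labelled α1ACT, 6.80-fold higher. Htr6, a serotonin receptor, rose from 0.929 CPM ± 0.183 to 3.63 ± 0.523. Of 25 potassium channel genes tested, 8 were higher and 2 lower with a median of 0.27, and 3 were higher without the library labelled vector number 2 and 4 without that labelled α1ACT number 3. The number lower was 1 without α1ACT number 1 or vector number 1. Kcnj12, an inward rectifier, stood at 59.0, 47.7 and 59.5 CPM against 108, 104 and 103 CPM, clear of overlap. Of 24 sodium channel and ligand-gated receptor genes, 8 were higher and 1 lower (2 without the library labelled vector number 1). Scn3b, the β3 subunit of sodium channels, was the gene that gained most CPM, from 2689 CPM ± 177 to 3982 ± 77.7. The nicotinic receptor subunit Chrna3 and the ATP receptor P2rx2, both of sympathetic neurons, were higher by 0.44 ± 0.07 and 0.28 ± 0.05 on the log2 scale.

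Genes tied to α1ACT in earlier work were looked at by name. Cacna1a, the rat gene of the host transcript, was at 13.1, 13.0 and 13.6 CPM against 17.4, 15.5 and 18.9 CPM, with no overlap (0.39 ± 0.12, adjusted p = 0.0118). That call was lost without the library labelled α1ACT number 3 (0.31, adjusted p = 0.0713). Counts are per rat gene, so the human transgene was not measured separately here. Atp2b2, the plasma membrane calcium pump PMCA2, was at 25.8, 24.5 and 27.6 CPM against 48.7, 39.2 and 41.7 CPM, 1.67-fold higher (0.74 ± 0.09, adjusted p = 3.07e-07). At the labelled 6 h Atp2b2 was higher by 0.88 ± 0.09, and Cacna1a was not called (0.16 ± 0.12, adjusted p = 0.302). At the labelled 24 h and 10 d both genes averaged lower in the groups labelled α1ACT, which was not tested. With vector first, Atp2b2 averaged 28.6 against 25.03 CPM at 24 h and 31.51 against 26.88 CPM at 10 d. Cacna1a averaged 16.9 against 11.67 CPM and 17.24 against 13.36 CPM. Grn (0.08 ± 0.05), Btg1 (0.14 ± 0.11) and Taf1 (-0.04 ± 0.06) were not called, with adjusted p of 0.248, 0.343 and 0.619. In the list of calcium pumps, exchangers and release channels, which holds Atp2b2, 5 of 26 tested were higher (19.2%) and 6 lower (23.1%). These shares are near those over all genes tested, and 3 each were called without the replicates numbered 1. Atp2b1, the pump PMCA1, fell by 0.85 ± 0.05 on the log2 scale while Atp2b2 rose, and the IP3 receptor Itpr1 fell by 0.69 ± 0.07.

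Neuronal genes were counted in separate lists, which were not tested against each other. Among 31 axon guidance genes, 12 were higher (38.7%) and 4 lower (12.9%) with a median of 0.19. The number higher was 7 without the library labelled α1ACT number 1, α1ACT number 3 or vector number 2. It was also 7 without the replicates numbered 1 or 3. The netrin receptor Unc5b was at 144, 128 and 138 CPM against 286, 295 and 280 CPM, 2.10-fold higher, and the semaphorin receptor Plxnd1 was 2.04-fold higher (47.4 CPM ± 3.16 against 96.5 ± 7.04). Sema6d was at 19.5, 11.5 and 20.3 CPM against 61.2, 35.0 and 54.2 CPM. Slit2, a secreted repellent, was lower by 1.16 on the log2 scale. Of 34 genes of the neuronal cytoskeleton, 14 were lower (41.2%) and 3 higher (8.82%), with a median of -0.12. Without the replicates numbered 1, 9 were lower. Doublecortin-like kinase 1, Dclk1, fell from 77.6 CPM ± 17.2 to 24.9 ± 7.20, Sprr1a, a gene of axon regeneration, from 66.2 CPM ± 17.7 to 23.5 ± 4.20, and the kinesin Kif5a by 0.72 ± 0.09 on the log2 scale. Tubulins Tubb2a, Tubb2b, Tubb3 and Tubb6 were all lower, and reads of such similar genes may be missing as not unique or wrongly assigned.

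Exocytosis genes were balanced, 8 of 35 higher and 8 lower, but 13 higher without the replicates numbered 2 and 4 lower without those numbered 3. The vesicle GTPase Rab3a was at 24.6, 19.4 and 22.4 CPM against 50.3, 42.0 and 50.9 CPM, and its effectors Rph3a, Rph3al and Sytl4 rose by 0.96 ± 0.10, 0.59 ± 0.05 and 0.84 ± 0.09 on the log2 scale. Members of this balanced list were named by or after their values, and partners of Rab3a were not tested as a group. Syt4, a synaptotagmin, lost more CPM than any other gene, from 2575 CPM ± 104 to 1568 ± 56.8, and Snap25, a SNARE, fell by 0.47 ± 0.07 on the log2 scale. The neuropeptide precursor Vgf was at 617, 890 and 567 CPM against 237, 319 and 177 CPM, 2.83-fold lower.

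Catecholamine genes were divided. Of 13 tested, 5 were higher and 3 lower, and 1 was lower without the replicates numbered 3. The vesicular transporter Slc18a1 was at 569, 615 and 566 CPM against 832, 951 and 806 CPM, and the noradrenaline transporter Slc6a2, the decarboxylase Ddc and cytochrome b561, Cyb561, were higher by 0.43 ± 0.07, 0.28 ± 0.06 and 0.46 ± 0.05 on the log2 scale. Gch1, which makes the cofactor of tyrosine hydroxylase, was 1.64-fold lower. Th itself differed by 1.13-fold (5793 CPM ± 90.8 against 5116 ± 229) and was not called without the replicates numbered 1 or 3. Of 11 sympathoadrenal transcription factors, Gata2 (414 CPM ± 16 against 734 ± 27.2) and Hand1 (39.0 CPM ± 3.91 against 61.9 ± 3.41) were higher, and Isl1 and Meis1 were lower by 0.39 ± 0.10 and 0.31 ± 0.06 on the log2 scale.

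Of 19 G1 regulators of the cell cycle tested, 6 were higher (31.6%) and none was lower. Cyclin D1, Ccnd1, was at 678, 608 and 710 CPM against 962, 1086 and 945 CPM, and Ccng2, a cyclin linked to cell cycle exit, was 1.97-fold higher (63.2 CPM ± 1.95 against 125 ± 5.11). Mitosis genes had 12 of 46 higher, 5 lower and a median of -0.01, and the number higher was 6 without the library labelled vector number 1 and 7 without that labelled α1ACT number 3. The number lower was 3 without any of 4 single libraries (α1ACT numbers 1 and 3, vector numbers 2 and 3) and 11 with the 6 libraries compared alone. The securin Pttg1 differed most, by 0.70 ± 0.10 on the log2 scale. Genes of ribosome assembly were lower in 19 of 37 cases (51.4%) and higher in 3, with a median of -0.17, and 11 were lower without the replicates numbered 3. The snoRNP protein Nop58 fell from 150 CPM ± 4.06 to 118 ± 3.87, while Ubtf, a factor of RNA polymerase I, was 1.35-fold higher. Of 67 cytosolic ribosomal protein genes, 3 were lower and none was higher, and 1 was lower without the library labelled α1ACT number 3 or vector number 2. The number lower was 0 without the replicates numbered 1 and 7 without those numbered 2.

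Genes of sterol and fatty acid synthesis were taken as 1 list. Of 38 tested, 7 were higher (18.4%) and 13 lower (34.2%). The number higher was 4 without the replicates numbered 1, and the number lower was 8 without those numbered 3. Hmgcs1, which acts early in the mevalonate pathway, was higher, at 140, 204 and 133 CPM against 303, 312 and 303 CPM. Insig1, which retains the sterol sensor SCAP in the endoplasmic reticulum, rose by 0.73. Farther down, Fdps and Cyp51 were lower by 0.62 ± 0.07 and 0.77 ± 0.08 on the log2 scale. Endoplasmic reticulum chaperones such as Hsp90b1 (0.53 ± 0.09), Pdia4 (0.53 ± 0.07) and Calr (0.45 ± 0.07) were higher, and the sensors Ern1, Atf6 and Eif2ak3 were lower by 0.36, 0.29 and 0.21 on the log2 scale. Ern1 was not called without the library labelled α1ACT number 2 (adjusted p = 0.0764). In that list 13 of 32 were higher and 7 lower, which became 7 higher without the library labelled vector number 1 and 2 lower without vector number 2. Of 35 genes of the integrated stress and amino acid response, 6 were higher and 10 lower, with 3 higher without any of 3 single libraries (α1ACT number 3, vector numbers 1 and 2). Atf4 (385 CPM ± 39.6 against 232 ± 21.7), Ddit3 and the cystine transporter Slc7a11 (18.7 CPM ± 0.522 against 6.44 ± 1.48) were lower, and the secreted factor Gdf15 and the mitochondrial enzyme Pck2 were higher, 1.64-fold and 1.53-fold. Targets of NRF2, the factor of the antioxidant response, had 6 of 25 higher and 4 lower, and 1 higher without the replicates numbered 1. Srxn1, which repairs oxidised peroxiredoxins, was 2.20-fold lower (405 CPM ± 40.4 against 184 ± 4.44), and the glutathione transferase Gsta4 was 1.47-fold higher.

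The labelled 6 h comparison, α1ACT against vector in 6 other libraries, gave nearly the same picture. By file names it is also 24 h against 6 h, in the P line. It had 4162 genes called (41.6%), 2045 higher (20.5%) and 2117 lower (21.2%). Called at both times were 3064 genes, and 3060 of them had the same direction, 77.8% of the 3 d calls and 73.5% of the 6 h calls. Of the 253 genes called with at least 2-fold at 3 d, 250 had the same sign at 6 h. Across the 9994 genes the log2 fold changes had a Pearson r of 0.82 and a Spearman coefficient of 0.84, as a description, since genes are not independent replicates.

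**Figure D4:**
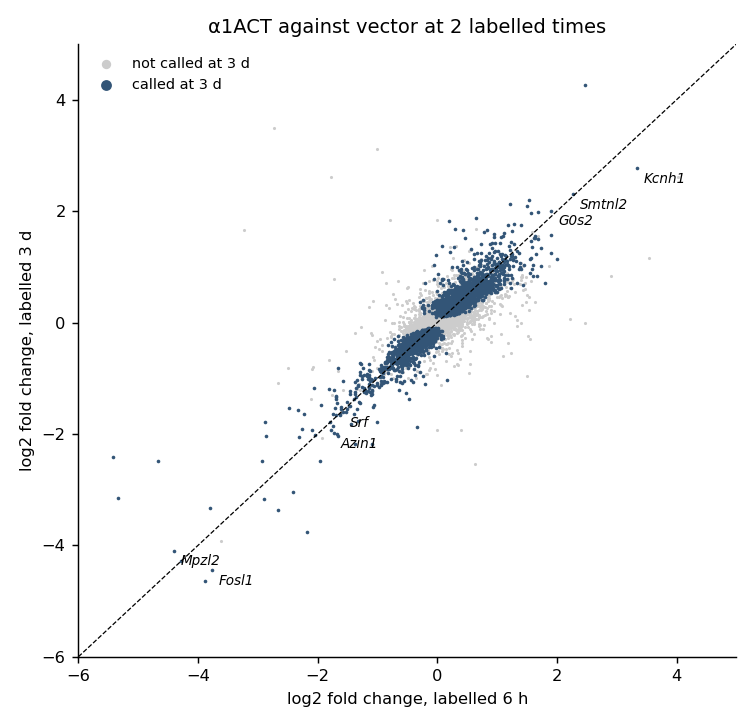
Log2 fold change at the labelled 3 d (vertical axis) against that at the labelled 6 h (horizontal axis), 1 point per gene tested, with the line of equal change dashed. Fosl1, Mpzl2, Azin1 and Srf lie near that line at the lower end, and Kcnh1, Smtnl2 and G0s2 at the upper end.

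The difference between the 2 line effects was tested for every gene, in 1 model over all libraries. No gene passed (0 of 9994 by edgeR and 0 by DESeq2), the smallest adjusted p was 0.371, and 487 genes (4.87%) had an unadjusted p under 0.05. The median SE of the difference was 0.114 on the log2 scale, and a gap of several SE could still go uncalled. For the mitosis gene Kif20a the 2 line effects lay 0.40 ± 0.12 apart on that scale (edgeR, adjusted p = 0.619). The lack of calls therefore does not show that the effects were equal at the 2 times. Read by labels, the tested difference is the interaction of line with time, 3 d against 6 h. Read by file names, it is the interaction of line with time, 24 h against 6 h. With the 12 libraries of these groups alone 8 genes passed, and 14 passed without the replicates numbered 2. Among lists with at least 10 members tested, histones (medians of -0.14 at 3 d and -0.42 at 6 h) and mitosis genes (-0.01 and -0.28) had the widest gaps between the times. At 6 h 31 of 46 mitosis genes were lower and none was higher, and these gaps were not tested as lists.

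Levels in all 8 labelled groups show where the 2 groups of this comparison lie. Azin1, the antizyme inhibitor that sustains polyamine synthesis, was at 804, 1041 and 835 CPM in the libraries labelled vector 3 d and 204, 257 and 215 CPM in those labelled α1ACT 3 d. Its mean was 811 CPM in the group labelled vector 6 h and 182 to 282 CPM in the other 5 groups. Fosl1 averaged 15.7 CPM ± 1.41 in the group labelled vector 6 h and 16.1 ± 4.46 in that labelled vector 3 d, and 0.318 to 1.13 CPM in the other 6. Srf, Actg1 and Vgf were likewise high in these 2 groups labelled vector, with means of 178 and 171 CPM for Srf, 634 and 528 for Actg1 and 868 and 691 for Vgf, and Smtnl2, an actin-associated protein of the smoothelin family, was low in them at 6.96 and 7.34 CPM. In the other 6 groups Srf was at 56.0 to 70.4 CPM and Smtnl2 at 25.1 to 36.3 CPM. The 2 groups that stand apart are the ones whose files are named 6 h, in the P line and in the Q11 line. By labels they are the vector line at 6 h and at 3 d, with the vector line at 24 h and at 10 d among the other 6.

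**Figure D5:**
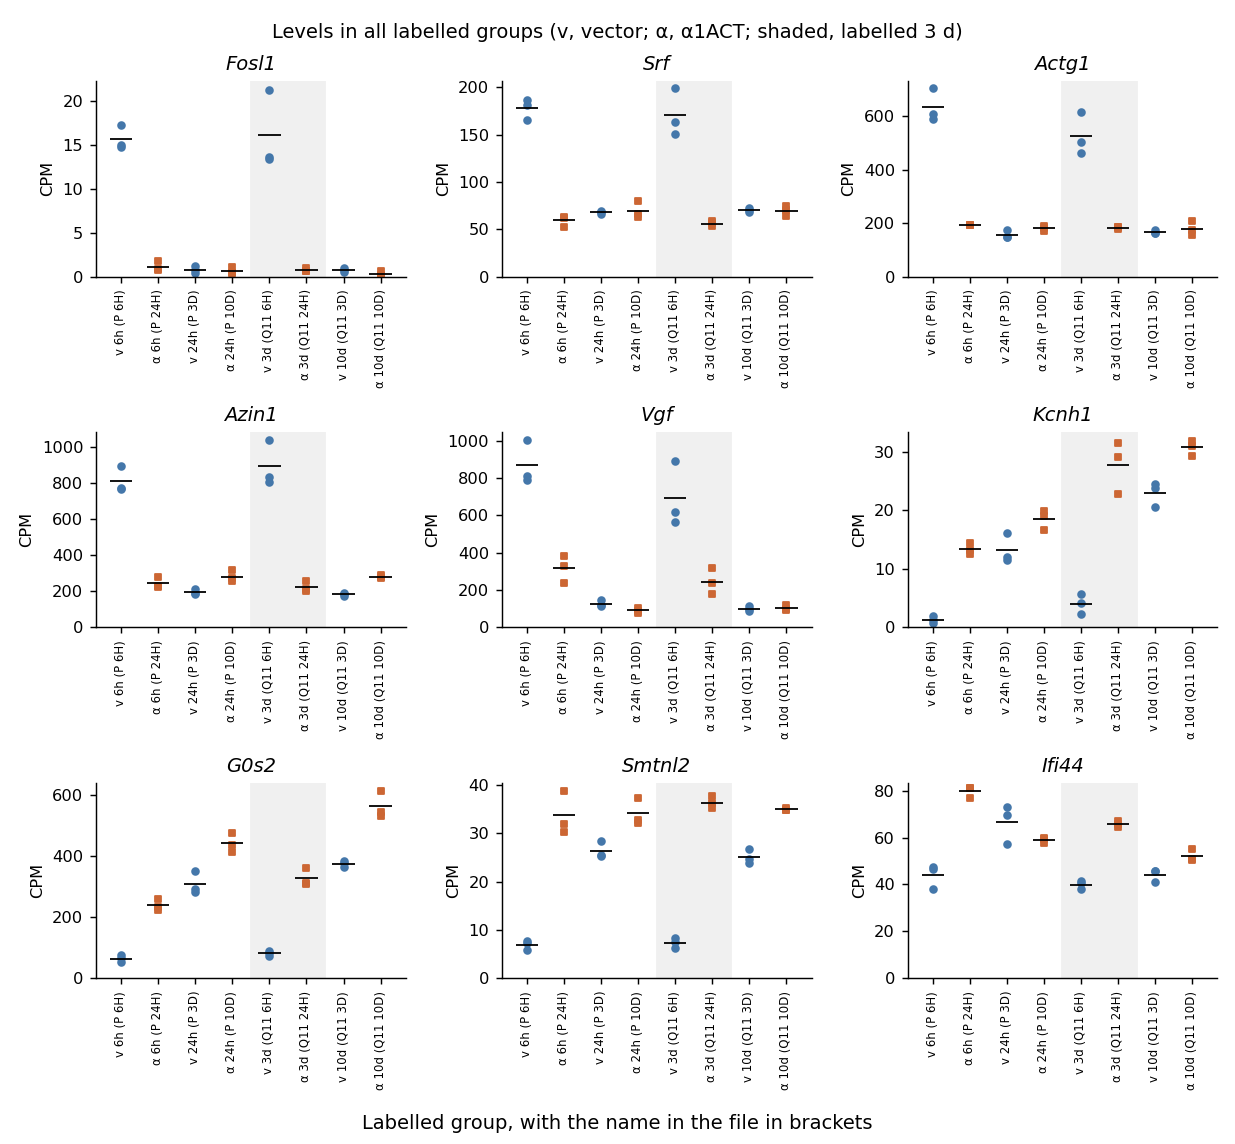
Levels (CPM) of 9 genes in every library of the 8 labelled groups, with the mean as a bar, circles for vector, squares for α1ACT, the name in the file in brackets and the labelled 3 d groups shaded. Fosl1, Srf, Actg1, Azin1 and Vgf are high and Smtnl2 is low in the groups labelled vector 6 h and vector 3 d, the 2 whose files are named 6 h.

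Gata2 did not share that split into 2 against 6. It averaged 422 and 414 CPM in the groups labelled vector 6 h and vector 3 d, 675 and 734 in α1ACT 6 h and α1ACT 3 d, 871 and 921 in vector 24 h and vector 10 d, and 469 and 504 in α1ACT 24 h and α1ACT 10 d. Its levels therefore fell into 4 pairs, and each pair shares a time in the file names (6 h, 24 h, 3 d and 10 d in that order) and not in the labels. G0s2, an inhibitor of the lipase ATGL, was low in the same 2 groups as Smtnl2 and also differed among the other 6. It averaged 64.0 and 81.6 CPM in the first of these pairs, 238 and 327 in the next, 308 and 376 in the third and 442 and 563 in the last.

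Over all genes tested, the group labelled α1ACT 3 d lay closest to α1ACT 6 h, and vector 3 d closest to vector 6 h. The root mean square distance between group means, on the log2 CPM scale, was 0.185 between the groups labelled α1ACT 3 d and α1ACT 6 h and 0.194 between those labelled vector 3 d and vector 6 h. The distance between the 2 groups compared here, α1ACT 3 d and vector 3 d, was 0.369. The group labelled vector 3 d lay 0.637 from vector 24 h and 0.669 from vector 10 d, groups that share its line by the labels. For each of the 8 groups the nearest other group was the one whose file name gives the same time in the other line. Whether a difference reported here belongs to α1ACT or to the time point cannot be told apart from these libraries while labels and file names disagree.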

How the data were processed

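Total RNA of 24 PC12 libraries (8 groups of 3) was sequenced with a stranded kit after depletion of ribosomal RNA, per the labels' protocols. For each library the authors deposited gene-level counts of reads, not normalized. Tools listed in the submitters' processing notes are edgeR, HTSeq 0.5.4p5, Picard 1.117, TopHat2 2.0.10 and FastQC 0.11.2, and the build listed is rn5. The strand setting of the counting is not given in the sources used here, so overlapping antisense genes may share reads. File names disagreed with the sample titles for 18 of 24 libraries, and groups were taken from the labels. Each table listed 17055 genes, and 9994 passed edgeR's filter (count 10, total 15). Depth was 8679560 to 14486248 counts per library on genes over the series.

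Counts were tested in R 4.3.3 with edgeR 4.0.16 (quasi-likelihood F-test), with TMM factors, 1 coefficient per group over all 24 libraries, Benjamini-Hochberg adjustment over all genes and a threshold of 0.05. The difference between the 3 d and 6 h effects was a contrast of the same fit. SE was the absolute log2 fold change divided by the square root of F. CPM is a gene's count per 1000000 counts on the genes that passed the filter, with the library's TMM factor applied, and the floor of 3 counts was put on that scale without the factor, over all genes. Calls by DESeq2 1.42.0, other size factors, no filter, fewer libraries and a replicate block were alternatives. The script was tested on simulated data. Deviations of same-numbered libraries had correlations of 0.124, 0.318 and 0.139. Those of differently numbered libraries were -0.208 to 0.105, the highest for vector number 3 with α1ACT number 1. Only number 2 stood clear of these, so the numbers may or may not pair the samples. The calls reported come from the fit without a block. The block gave 4147 calls, which held 3918 of the 3934 calls without it.

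The members and the 42 gene lists and 8 marker lists were chosen with earlier results of these data known. Genes were named by rule: the 12 largest rises and 12 largest falls that averaged 2 CPM or more and did not overlap, the 6 largest gains and 6 largest losses in CPM, of each list with 2 or more calls the 4 smallest p-values with the largest rise and fall, and 5 genes tied to α1ACT (Cacna1a, Atp2b2, Grn, Btg1, Taf1). Other list members named in the text, and the pairs shown for promoters, were chosen after their values were seen. The rule's last part, genes whose 3 d and 6 h effects differ past the threshold, named none. Promoters were those of RefSeq on GRCr8, matched by symbol for 8105 of the genes tested. Proteins and genome coordinates of genes were not used here. Some genes are not reported here by name.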

Additional observations from a re-analysis of the deposited data

How the results depend on the processing

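The alternatives were other size factors, no filter on low counts, DESeq2, the 6 or 12 libraries compared alone, a replicate block, and leaving out each library or each replicate number. The count of 3934 calls at 3 d ranged from 2449 to 3640 without 1 replicate number (2462 without number 1, 2449 without number 3) and from 3029 to 3587 without 1 library, fewer samples being tested in each. Leaving out a library or number gave 1143 to 1813 higher calls (1227 without number 3), 1222 to 1929 lower calls, and 2580 to 3984 calls at 6 h (2637 without number 3). The difference between the 2 effects gave 8 genes with the 12 libraries alone and 14 without replicate 2, against 0 otherwise, and the cause was not tested. Cacna1a was not called without the library labelled α1ACT number 3 (0.31), nor without numbers 1 (0.36) or 3 (0.34), against 0.39, and ranged up to 0.46. Taf1, not called in any setting, ranged from -0.10 to 0.0042 and changed sign without number 2 (adjusted p = 0.966). The other counts and the genes tied to α1ACT kept their side of the threshold. The replicate block gave 4147 calls and ended no call of a named gene. With the 6 libraries compared alone 4227 genes were called, which held 3771 of the 3934 calls. Of 208 named genes called, 168 were called under every alternative run and 40 were lost under at least 1. Depth limits genes near the floor of 3 counts per library, 0.236 to 0.309 CPM here.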

Other observations

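Azin1 was among the 12 largest falls, and the other genes of polyamine metabolism were therefore looked up after its value was seen. Odc1, ornithine decarboxylase, the enzyme whose antizyme Azin1 binds, was at 835, 1190 and 864 CPM in the libraries labelled vector 3 d and at 339, 530 and 365 CPM in those labelled α1ACT 3 d. The groups did not overlap, and the log2 fold change was -1.23 ± 0.14 (edgeR, adjusted p = 2.14e-07). Sat1, the acetyltransferase that starts polyamine breakdown, was at 101, 150 and 101 CPM against 66.8, 79.7 and 63.0 CPM, and the oxidase Smox fell from 2.62 CPM ± 0.232 to 1.21 ± 0.184. Amd1, Oaz2 and Sat2 were higher by 0.16 ± 0.06, 0.22 ± 0.06 and 0.48 ± 0.13 on the log2 scale, and the transporter chain Slc3a2 was lower by 0.25 ± 0.07. Oaz1 (0.07 ± 0.05), Sms (-0.11 ± 0.07), Srm (0.11 ± 0.39), Paox (0.25 ± 0.10) and Adc (-0.04 ± 0.08) were not called. At the labelled 6 h the log2 fold changes of Azin1 and Odc1 were -1.73 and -1.09.

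Glucose and hypoxia genes were divided evenly, 9 of 36 higher and 9 lower. The hexokinase Hk2 was at 13.7, 15.8 and 15.2 CPM against 30.7, 32.1 and 27.4 CPM, and the hypoxia-inducible factor Epas1 was 1.69-fold higher. The glucose transporter Slc2a1 was at 56.6, 74.9 and 50.3 CPM against 32.3, 35.5 and 31.3 CPM. In the circadian list 5 of 20 were higher and 7 lower. Dbp, a target of CLOCK and BMAL1, was 1.71-fold higher (25 CPM ± 1.56 against 42.7 ± 1.34), while the repressors Per1, Per2 and Cry1 were lower by 0.42, 0.45 and 0.35 on the log2 scale. In that list 3 members were higher without the library labelled vector number 1, and 4 lower without the replicates numbered 3.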
